A study of Homo sapiens with 48 samples.

Results

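Androgen depletion was examined in Rv1-Luc cells given vehicle, by setting 3 RNA-seq libraries of cells kept in charcoal-stripped serum (CSS) against 3 libraries of cells kept in regular fetal bovine serum (FBS). The members are these 6 libraries, chosen by their labels, out of 48 in the series. Every gene that passed a filter on low counts over all 48 libraries was tested between them. 22Rv1 is a human castration-resistant prostate cancer line, and Rv1-Luc is a subline of it made by lentiviral transduction of firefly luciferase. The other lines, media and drugs of the series entered the filter on low counts, the scaling and the shared estimate of spread. Beyond that, 2 comparisons are set beside the main one, each again with 3 libraries a group. They are Rv1-Luc CSS against FBS under the CDK8/19 inhibitor SNX631, and CSS against FBS under vehicle in Rv1-WT, the parental 22Rv1. All vehicle groups received 0.1% DMSO for 72 hours, and the SNX631 groups 500 nM of the inhibitor. Cells in CSS had already spent 1 passage of 3 to 4 days in that medium and were plated at 300000 cells a well, against 200000 in FBS, so the medium, the earlier passage and the plating density cannot be told apart. Rv1-Luc is a single subline, and nothing in the labels separates the effect of the transgene from that of its selection.

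Androgens such as testosterone and dihydrotestosterone act on the prostate by raising the transcription of target genes that carry androgen response elements. Among these are the kallikreins KLK2 and KLK3, the latter coding for prostate-specific antigen. Charcoal removes androgens from serum, and with them glucocorticoids, thyroid hormone and other small lipophilic molecules, and a CSS medium is the usual cell-culture counterpart of castration. Castration-resistant cells go on growing in it.

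The 6 libraries held between 20.7 M and 27.3 M counts (M, mega), against 13.2 M to 31.5 M counts over all 48. The luciferase transgene had 11044 to 13996 counts in each of the 6 libraries and 0 in each of the 6 Rv1-WT vehicle libraries. Luminal prostate markers were present, 12 of 12 passing the filter on low counts with a summed level of 2744 to 2916 CPM (counts per M counts of the library, scaled for composition), while of 6 basal markers KRT5, KRT14 and TP63 did not pass it and KRT15, DST and ITGA6 did, with a summed level of 40.2 to 58.5 CPM and no call. Replicates differed from each other by more than counting noise in every pair, the chi-square statistic divided by its degrees of freedom lying between 1.93 and 9.69, with FBS replicates 1 and 2 the widest pair. Where the FBS replicate 1 library alone decides a gene, this is said beside it. Markers of B and plasma cells differed between the media. Immunoglobulin genes summed to 1204, 1518 and 682 counts in the FBS libraries and to 306, 319 and 265 in CSS, and 2 of 7 tested B and plasma cell markers, IGHM and JCHAIN, were lower in CSS. Under the inhibitor SNX631 these counts were 325, 831 and 298 in FBS and 1181, 690 and 436 in CSS, overlapping groups with the higher mean in CSS, and IGHG3 was called higher in CSS there (1.67, adjusted p = 0.0069). The source of these reads was not tested. Immunoglobulin and JCHAIN genes made up 5 of the calls below, all of them lower in CSS.

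The promoters of 3 genes described below are shown because they carry a match to the androgen response element. Of the 9 androgen response genes that were lower in CSS, 6 had a promoter window in RefSeq (GRCh38.p14, from 250 bases before to 50 after the gene's start), and 3 of those windows held a match to the 15-base androgen response element, which is the hexamer AGAACA, 3 free bases and the inverted hexamer TGTTCT, searched on both strands with up to 3 mismatches in its 12 fixed bases. They are printed 5′ to 3′ on the strand of the gene, with the matching 15 bases in capitals. KLK3 lies at chr19:50854665-50854964 on the plus strand, KLK2 at chr19:50873189-50873488 on the plus strand and FKBP5 at chr6:35728534-35728833 on the minus strand.
KLK3: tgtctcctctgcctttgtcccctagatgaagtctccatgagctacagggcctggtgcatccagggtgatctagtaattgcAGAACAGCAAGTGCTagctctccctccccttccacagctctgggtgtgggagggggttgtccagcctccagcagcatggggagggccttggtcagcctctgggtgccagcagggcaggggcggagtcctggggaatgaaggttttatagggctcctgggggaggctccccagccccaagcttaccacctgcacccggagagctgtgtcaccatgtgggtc
KLK2: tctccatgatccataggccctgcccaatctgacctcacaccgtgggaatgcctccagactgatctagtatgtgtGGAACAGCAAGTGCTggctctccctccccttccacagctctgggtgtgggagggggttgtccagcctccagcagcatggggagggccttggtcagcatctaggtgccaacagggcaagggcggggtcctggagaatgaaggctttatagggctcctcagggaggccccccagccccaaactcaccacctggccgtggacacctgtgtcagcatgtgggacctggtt
FKBP5: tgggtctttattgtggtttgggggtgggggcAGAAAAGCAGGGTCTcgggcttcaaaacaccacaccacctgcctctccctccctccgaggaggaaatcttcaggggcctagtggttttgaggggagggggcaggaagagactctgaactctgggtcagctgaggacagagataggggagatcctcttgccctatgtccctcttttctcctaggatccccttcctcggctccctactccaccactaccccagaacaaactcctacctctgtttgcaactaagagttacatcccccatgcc
The KLK3 match differed from the motif at 2 fixed bases, and those of KLK2 and FKBP5 at 3. The matches of KLK3, KLK2 and FKBP5 began at positions -170, -176 and -219 from the start of the gene. Over all 12633 tested genes with a promoter window, 6.10% held such a match, as did 14 of the 108 lower genes with a window (13%) and 3 of the 106 higher ones (2.83%). The hexamer AGAACA alone, which can lie within the longer motif, was found in 9.19% of all windows, 13% of those of lower genes and 4.72% of those of higher genes. A match is a description of the letters in these windows, and distal enhancers, where many such elements are found, lie outside them.

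Of 20009 genes tested, 298 (1.49%) changed between CSS and FBS, by a false discovery rate (adjusted p) under 0.01 and a fold change over 1.5. Lower genes numbered 162 (0.81%) and higher genes 136 (0.68%). For 293 of the 298, all 3 CSS libraries lay on one side of all 3 FBS libraries, which was so for 26.4% of all tested genes. The changes were modest, with a median size of 0.82 on the log2 scale, and the median over all genes was 0.01. Lower genes reached further. Of 97 genes that changed by over 2-fold, 69 were lower and 28 higher, and when each gene was tested against a 1.5-fold change rather than against no change, 46 lower and 3 higher genes passed. The higher genes were also expressed at lower levels, 81 of 136 averaging under 5 CPM against 74 of the 162 lower genes. The median level was 4.21 CPM for higher and 6.66 CPM for lower genes, both under the 12.4 CPM of all tested genes. Of the higher genes 1, the cell adhesion molecule BCAM, averaged over 100 CPM, while 16 of the 162 lower genes did.

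**Figure D1:**
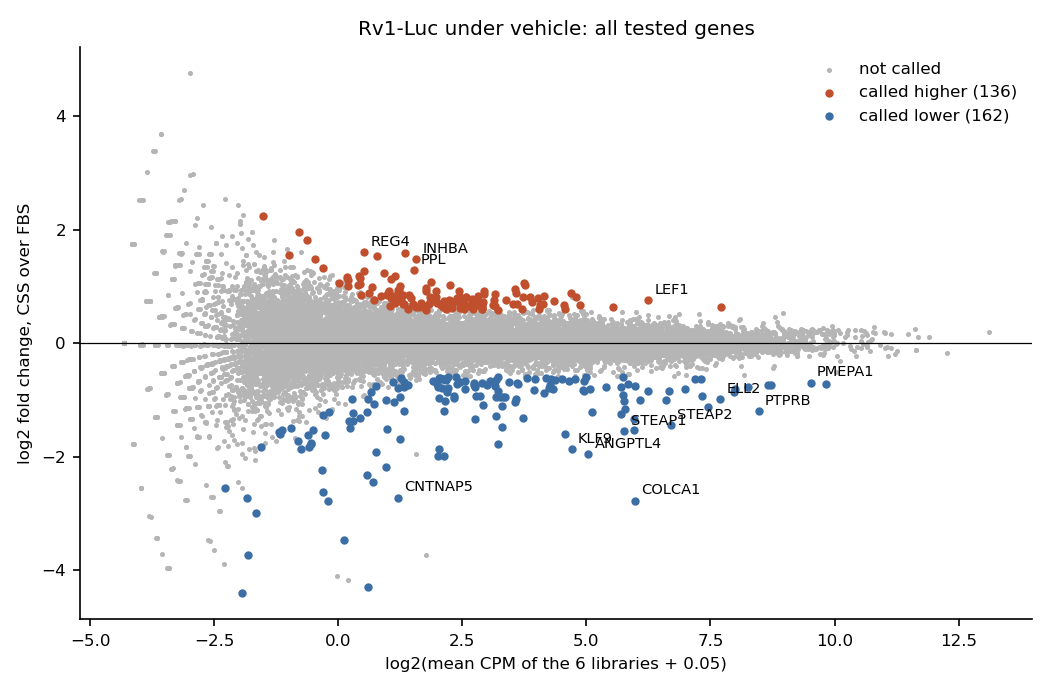
Change of each tested gene between CSS and FBS in Rv1-Luc cells under vehicle, with the mean level of the 6 libraries as log2(CPM + 0.05) on the x axis and the log2 fold change from the fit on the y axis. The 162 lower genes (blue) extend to higher levels and larger changes than the 136 higher genes (red), and genes that were not called are grey.

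The androgen response list held 39 tested genes, of which 9 fell, none rose and 34 had a fold change below 0, with a list median of -0.30 against 0.01 for all genes. The 9 that fell were STEAP2, SLC45A3, ZBTB16, ELL2, KLK2, KLK3, FKBP5, PMEPA1 and NDRG1. At an adjusted p limit of 0.05 and no limit on fold, 20 members were lower and 2 higher. Of all tested genes 14.0% passed that limit, 1334 lower and 1466 higher. The kallikreins were among the weakly expressed members. KLK3 stood at 10.5, 7.13 and 8.85 CPM in the FBS libraries and at 4.33, 5.10 and 4.62 CPM in CSS. The 2 groups did not overlap, and the change was -0.92 ± 0.14 (log2, SE; adjusted p = 1.05e-06). KLK2, its neighbour and close relative, was measured at 18.0, 8.68 and 10.9 CPM in FBS and 5.70, 7.13 and 6.79 CPM in CSS, a change of -0.95 ± 0.18 (adjusted p = 0.00016), with FBS replicate 1 well above the other FBS libraries. Without that library the change was -0.585, which passed only barely, the fold limit being 0.585 on the log2 scale. The KLK2 call was lost with only the 6 libraries, with or without the replicate number as a block. KLK2 and KLK3 are paralogs, and reads that fit both could have been split between them.

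Members at higher levels were measured more precisely. FKBP5, a co-chaperone and a known androgen target, fell from 345, 305 and 316 CPM to 185, 171 and 176 CPM (-0.86 ± 0.04, adjusted p = 4.78e-23). SLC45A3, the prostate membrane transporter known as prostein, fell from 75.8, 72.9 and 71.7 CPM to 30.8, 31.7 and 30.2 CPM (-1.25 ± 0.07, adjusted p = 9.07e-22). In both genes the spread within a medium was a small part of the gap between media. STEAP2, a metalloreductase of the prostate cell surface, had the largest fall of the list, from 155, 145 and 158 CPM to 58.4, 50.7 and 59.6 CPM (-1.44 ± 0.06, adjusted p = 1.47e-27). STEAP1, which neighbours it on chromosome 7 and was counted in the list of prostate surface antigens, fell alongside it from 89.6, 75.7 and 76.9 CPM to 26.0, 28.2 and 29.2 CPM (-1.54 ± 0.06, adjusted p = 1.25e-27). The other 11 tested surface antigens did not pass.

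The elongation factor ELL2 was at 319, 237 and 267 CPM in FBS and 136, 141 and 141 CPM in CSS (-0.98 ± 0.07). PMEPA1, a negative regulator of TGF-beta signalling, was the most abundant of the 9 and fell from 924, 899.7 and 897 CPM to 588, 536 and 561 CPM (-0.69 ± 0.04, adjusted p = 1.05e-21). The long non-coding RNA NKILA, transcribed next to PMEPA1 and overlapping it in RefSeq, fell from 49.9, 45.2 and 50.1 CPM to 21.9, 19.1 and 21.8 CPM (-1.21 ± 0.07), and since the counting of strand is not given in the sources used here, reads of the pair cannot be told apart. The smallest of the 9 changes was that of NDRG1, also a hypoxia gene, with 98.9, 109 and 135 CPM in CSS against 189.6, 169 and 168 CPM in FBS (-0.62 ± 0.15, adjusted p = 0.0033).

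Several classical androgen targets moved by less than the 1.5-fold limit. TMPRSS2, the serine protease gene fused to ETS factors in many prostate cancers, had a change of -0.57 ± 0.10 (adjusted p = 6.33e-05), from 7.12, 7.0 and 6.04 CPM to 4.26, 5.28 and 4.16 CPM. HPGD, which inactivates prostaglandins, and KLK4 had changes of -0.56 ± 0.04 and -0.40 ± 0.08. CAMKK2, a kinase often used as an androgen target, stood at -0.01 ± 0.03 (adjusted p = 0.843). The opposite direction was taken by SPDEF, an epithelial ETS factor, with a mean of 123 CPM in CSS against 92.7 CPM in FBS (0.41 ± 0.05), a difference under the fold limit. None of the 16 tested steroid receptors and coregulators and none of the 12 luminal transcription factors passed, the latter including FOXA1 (0.12 ± 0.04) and HOXB13 (0.11 ± 0.04).

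**Figure D2:**
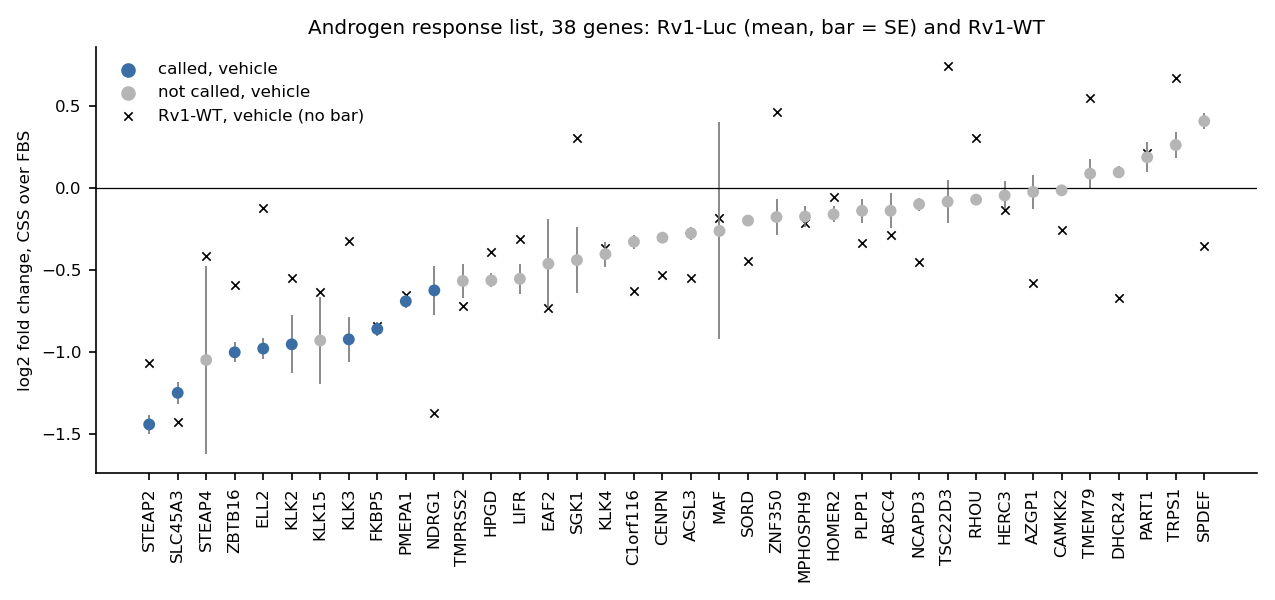
Log2 fold change between CSS and FBS of 38 of the 39 tested androgen response genes, ordered by their value in Rv1-Luc cells under vehicle (circles with SE bars, blue where called) and with the Rv1-WT value under vehicle as a cross without a bar. From STEAP2 at -1.44 to SPDEF at 0.41, 33 of the 38 Rv1-Luc values shown lie below 0.

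In the list of 12 tested genes known to be repressed by androgen none was called higher, and UGT2B11 and UGT2B28, which code for enzymes that glucuronidate steroids, fell. UGT2B11 went from 3.44, 3.56 and 3.27 CPM to 2.08, 0.992 and 1.29 CPM (-1.19 ± 0.20). The call of UGT2B28 (-1.75 ± 0.45) was lost when any of 5 of the 6 libraries was left out, and reads of the UGT2B paralogs can be split between them. UGT2B15, an androgen-inactivating member of the same family, had a change of 0.56 ± 0.10 (adjusted p = 2.52e-05), just under the fold limit.

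Targets of the glucocorticoid receptor, which binds the same DNA element, also moved in 1 direction. Of 14 tested genes 5 fell and none rose, and the list median was -0.32. FKBP5 and ZBTB16 belong to this list as well as to the androgen response list. KLF9, a zinc-finger repressor and hormone target, had 1 of the 2 lowest p-values of all genes and went from 36.3, 44.7 and 41.5 CPM to 11.6, 9.92 and 11.9 CPM (-1.87 ± 0.08, adjusted p = 1.25e-27). ANGPTL4, a secreted inhibitor of lipoprotein lipase, went from 63.8, 42.5 and 50.5 CPM to 13.1, 13.3 and 14.3 CPM (-1.95 ± 0.10, adjusted p = 5.97e-21). ZBTB16, a transcriptional repressor, dropped from 133, 125 and 129 CPM to 64.5, 62.1 and 66.8 CPM (-1.0 ± 0.06), and the metallothionein MT1X from 2.47, 1.76 and 1.82 CPM to 0.809, 0.902 and 0.924 CPM (-1.21 ± 0.21). Other textbook targets did not pass. PER1 stood at -0.03 ± 0.06, TSC22D3 at -0.08 ± 0.13 and DUSP1 at 0.15 ± 0.08. Among vitamin D and thyroid hormone response genes, KLF9 and the receptor gene THRB (-0.59 ± 0.07) fell of 11 tested, and the THRB call was lost without FBS replicate 2, FBS replicate 3 or CSS replicate 3.

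Apart from immunoglobulin genes and JCHAIN, the genes outside these lists that fell furthest, among those averaging at least 1 CPM and with no overlap between the groups, included COLCA1, CNTNAP5 and ABCC9. COLCA1, a little-studied gene of the colorectal cancer risk locus on chromosome 11, was at 118, 104 and 106 CPM in FBS and 13.9, 18.2 and 16.2 CPM in CSS (-2.77 ± 0.09, adjusted p = 3.83e-24). Its 3 CSS values were all far below the FBS values. ABCC9, a subunit of ATP-sensitive potassium channels, fell from 16.3, 12.1 and 14.9 CPM to 3.94, 4.33 and 4.39 CPM (-1.78 ± 0.11). Further falls of over 1.8 on the log2 scale were those of CNTNAP5, a neurexin-family cell adhesion protein (-2.72 ± 0.28), LDLRAD1 (-2.32 ± 0.28), the focal adhesion protein TNS4 (-1.91 ± 0.24) and DNER, a NOTCH ligand (-1.86 ± 0.22). The LDLRAD1 call was lost with DESeq2. TP53INP2, a regulator of autophagy, went from 33.2, 38.0 and 36.4 CPM to 12.4, 11.9 and 11.0 CPM (-1.60 ± 0.08), and RASSF3, a Ras-association domain protein, from 225, 254 and 236 CPM to 114, 105 and 109 CPM (-1.12 ± 0.05, adjusted p = 6.69e-26). Both were among the 6 lowest p-values. In the list of water and ion channels, the potassium channel KCNMA1 (-1.47 ± 0.11) fell, while the water channels AQP3 (0.61 ± 0.09) and AQP4 (1.82 ± 0.35) rose. AQP4 averaged under 1 CPM over the 6 libraries. The AQP3 call was lost without FBS replicate 2, FBS replicate 3 or CSS replicate 2. With the replicate block and only the 6 libraries, the calls of both AQP3 and AQP4 were lost.

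Hypoxia and glycolysis genes lay mostly below 0. Of 31 tested, 6 fell and 1 rose, and at an adjusted p limit of 0.05 with no limit on fold 25 were lower and 3 higher. Of all tested genes 14.0% passed that limit in either direction. The list median was -0.34. PFKFB3, which makes the activator of phosphofructokinase, fell from 90.1, 68.0 and 79.1 CPM to 46.0, 44.5 and 51.2 CPM (-0.74 ± 0.10, adjusted p = 9.95e-07), and the mitophagy receptor BNIP3 from 187, 138 and 155 CPM to 77.9, 93.3 and 104 CPM (-0.81 ± 0.13). The BNIP3 call was lost with only the 6 libraries, with or without the replicate block. NDRG1, PFKFB4, EGLN3 and PPFIA4 were the other 4 that fell. The calls of PFKFB4, EGLN3 and PPFIA4 were lost without FBS replicate 1, the FBS library with the highest value of each, and those of EGLN3 and PPFIA4 also without CSS replicate 1 or CSS replicate 2. Glycolytic enzymes shifted less, LDHA by -0.51 ± 0.07 (1365, 1105 and 1205 CPM to 865, 812 and 901 CPM) and PGK1 by -0.40 ± 0.07. The riser, EPAS1, codes for a hypoxia-inducible factor subunit and moved from 1.66, 1.22 and 1.73 CPM to 2.88, 2.57 and 2.73 CPM (0.84 ± 0.20), a call lost without FBS replicate 2 or CSS replicate 1. The groups also differed in plating density, whose part in this was not tested.

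Among the higher genes averaging at least 1 CPM, the largest changes were those of REG4, a secreted lectin of the gut epithelium, AMZ1, a metallopeptidase, GRM3, a glutamate receptor, and INHBA, the activin A subunit. REG4 went from 0.769, 0.503 and 0.727 CPM to 1.20, 2.8 and 2.31 CPM (1.61 ± 0.27), with CSS replicate 1 lowest of the 3. INHBA rose from 1.05, 1.72 and 1.86 CPM to 4.01, 4.56 and 4.39 CPM (1.49 ± 0.20, adjusted p = 1.01e-07), and PPL, the desmosomal protein periplakin, from 1.58, 1.59 and 1.77 CPM to 4.26, 3.97 and 3.84 CPM (1.29 ± 0.17, adjusted p = 4.04e-08). INHBA, PPL and AMZ1 (1.59 ± 0.22) were the 3 higher genes that passed the test against a 1.5-fold change. The remaining genes of this group were VLDLR-AS1, FSD1, LRP1B, ADCY4, ELFN2, DPF1 and FBXO2, with changes of 1.13 to 1.27, all measured at under 4 CPM. Of these, the calls of ADCY4, ELFN2 and DPF1 were lost when single libraries were left out. The rise at the highest level in the Wnt list was that of LEF1, a transcriptional partner of beta-catenin, from 49.4, 61.8 and 57.9 CPM to 98.3, 92.9 and 94.5 CPM (0.76 ± 0.06, adjusted p = 5.02e-16). It was 1 of 20 Wnt genes tested, and none of the others passed.

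**Figure D3:**
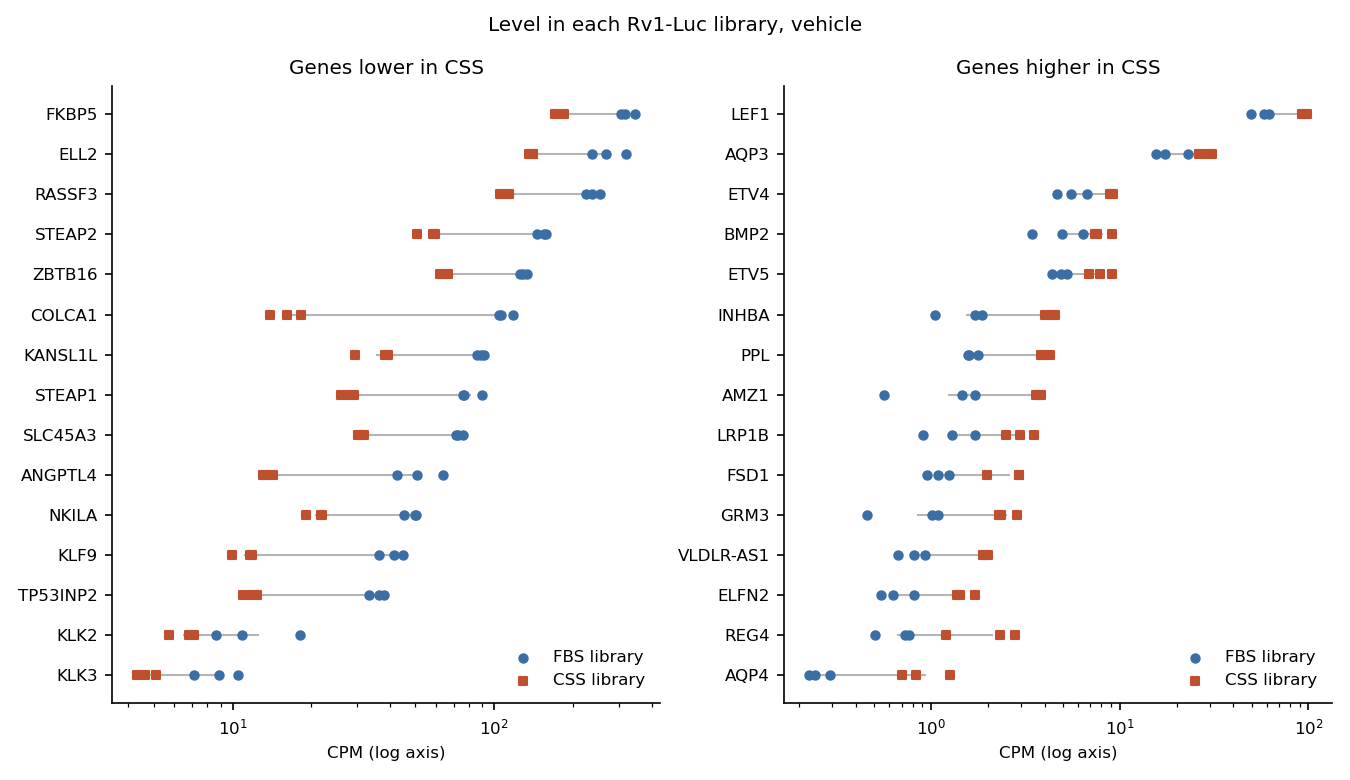
Level of 15 genes lower in CSS (left) and 15 genes higher in CSS (right) in each Rv1-Luc library under vehicle, in CPM on a log axis, with FBS libraries as blue circles, CSS libraries as red squares and a grey line between the group means. The 3 CSS points of each gene lie on one side of the 3 FBS points, as for KLF9 between 9.92 and 11.9 CPM in CSS against 36.3 to 44.7 CPM in FBS.

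Genes of the AP-1 and immediate-early list were called in both directions. Of 28 tested, ETV4, ETV5, EGR1 and DUSP6 rose, and DUSP4, like DUSP6 a phosphatase of mitogen-activated kinases, fell. ETV5 went from 4.37, 4.86 and 5.27 CPM to 9.08, 7.85 and 6.89 CPM (0.73 ± 0.11), and DUSP4 from 20.6, 18.7 and 19.3 CPM to 10.8, 10.9 and 11.4 CPM (-0.83 ± 0.08, adjusted p = 5.01e-12). FOS (-0.01) and MYC (0.10) did not pass. The calls of EGR1 and DUSP6 were lost without FBS replicate 1, where both were at their lowest, and that of ETV4 without FBS replicate 3. In the SMAD list of 23 genes, INHBA and BMP2 rose and PMEPA1 and ID4 fell. The BMP2 call (0.72 ± 0.14) was lost without FBS replicate 1 and that of ID4 (-0.77 ± 0.18) without any of 4 libraries. The keratins KRT7 (186, 88.7 and 115.9 CPM to 67.2, 80.2 and 71.8 CPM) and KRT19 (698, 386 and 496 CPM to 273, 341 and 332 CPM) fell, of 9 tested, and both calls were lost without FBS replicate 1, which held the highest value of each. Fibronectin (FN1), of the mesenchymal list, fell from 9.71, 9.22 and 9.67 CPM to 3.59, 3.61 and 4.16 CPM (-1.34 ± 0.19), and smooth muscle actin (ACTA2) rose by 0.65 ± 0.13, a call lost without CSS replicate 1, with only the 6 libraries and with thinned counts.

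Proliferation and housekeeping lists had no call, although some of them moved together by small amounts. Ribosomal protein genes were higher in all 32 tested, by 0.07 to 0.30 on the log2 scale with a median of 0.19, and 29 of them passed an adjusted p limit of 0.05 with no limit on fold, which 14.0% of all genes did in either direction. RPS2, for example, had a change of 0.16 ± 0.04. Under the same limit 12 of 32 mitosis genes were lower and none higher, the largest difference being that of the mitotic kinase AURKB (-0.44), whereas MKI67 was at -0.05 ± 0.09 and TOP2A at 0.01 ± 0.04. All 25 sterol synthesis genes had a fold change above 0, with a median of 0.18 and 9 passing that limit. In this list FBS replicate 1 stood apart, HMGCS1 being at 579, 1099 and 977 CPM in the FBS libraries. No gene of the Mediator kinase module passed, CDK8 standing at -0.28 ± 0.06 and CDK19 at 0.04 ± 0.04. In all, 22 of the 46 lists with tested members held a call and 24 held none. The neuroendocrine list had none in 19 genes, its most abundant member VGF having a change of 0.53 ± 0.05 (adjusted p = 9.28e-12), under the fold limit.

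The same change of medium was then compared under SNX631, an inhibitor of CDK8 and CDK19, which are the Mediator kinases. This comparison called 303 genes (1.51%), 0.595% of all genes being higher and 0.92% lower, and shared no library with the vehicle comparison. Of the 298 genes called under vehicle, 137 were called under SNX631, 136 of them in the same direction, which made up 46.0% of the vehicle calls and 45.2% of the SNX631 calls. These 136 were 92 of the 162 lower genes and 44 of the 136 higher genes. Median changes were smaller under the inhibitor, -0.74 against -0.94 for the lower genes and 0.55 against 0.77 for the higher genes. The genes were picked by their vehicle values, so that nothing is read from this. A test of the difference itself called 16 genes (0.08%), of which 10 were among the 298, all of them lower genes. Of these 10, 3 were IGHG3, JCHAIN and IGHM, and the 16 genes became 2 with only the libraries of the comparison. KANSL1L fell from 86.3, 91.4 and 88.9 CPM to 29.4, 39.2 and 38.3 CPM under vehicle (-1.33 ± 0.07), against -0.43 under SNX631 (adjusted p of the difference = 1.5e-08). Its neighbour ACADL, a long-chain acyl-CoA dehydrogenase, changed by -1.02 ± 0.06 against -0.32 (adjusted p of the difference = 3.53e-08). COLCA1 changed by -2.77 against -1.59 and NKILA by -1.21 against -0.52, while NDRG1 went the other way, with -0.62 under vehicle and -1.79 under SNX631. For ACADL and NKILA the FBS level under SNX631 was already lower, at 41.8 ± 1.26 and 11.9 ± 1.74 CPM (SD, n = 3), against 72.4 ± 0.56 and 48.4 ± 2.75 CPM under vehicle. For KANSL1L it was higher, at 102 ± 3.89 against 88.9 ± 2.58 CPM.

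Androgen response genes fell under the inhibitor too, 8 of 39 being called lower with a median of -0.16. FKBP5 and STEAP2 changed by nearly the same amount in both, -0.86 and -0.86 for FKBP5 and -1.44 and -1.39 for STEAP2. KLK3 changed by -0.38 and KLK2 by -0.30 under SNX631, where neither was called, but the difference from vehicle did not pass for either (adjusted p = 0.252 and 0.337). ELL2 changed by -0.98 and -1.01, its level under the inhibitor being 563 ± 57.0 CPM in FBS and 280.0 ± 32.8 CPM in CSS (SD, n = 3).

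In Rv1-WT cells under vehicle the same media gave 2174 calls (10.9%), 6.09% of all genes being higher and 4.78% lower. Of the 162 genes lower in Rv1-Luc, 128 had a fold change of the same sign in Rv1-WT, 57 were called lower there and 4 higher. Of the 136 higher genes 88 had the same sign, 37 were called higher and 11 lower. These genes were picked by their Rv1-Luc vehicle values, and the share of same-sign genes among all tested genes was not computed. The difference between the lines was itself called for 47 of the lower and 57 of the higher genes, among 1731 genes in all (8.65%). A common set of 60 genes was called in the same direction in all 3 comparisons, 42 lower and 18 higher. The lower genes included COLCA1, ANGPTL4, KLF9, STEAP1, STEAP2, SLC45A3, RASSF3, ZBTB16, FKBP5 and the hypoxia genes BNIP3, PFKFB3, PFKFB4 and NDRG1. The higher genes included INHBA, REG4, LRP1B, the transcription factor GATA3, the proteoglycan genes VCAN and BGN and the calcium channel gene CACNA1D.

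**Figure D4:**
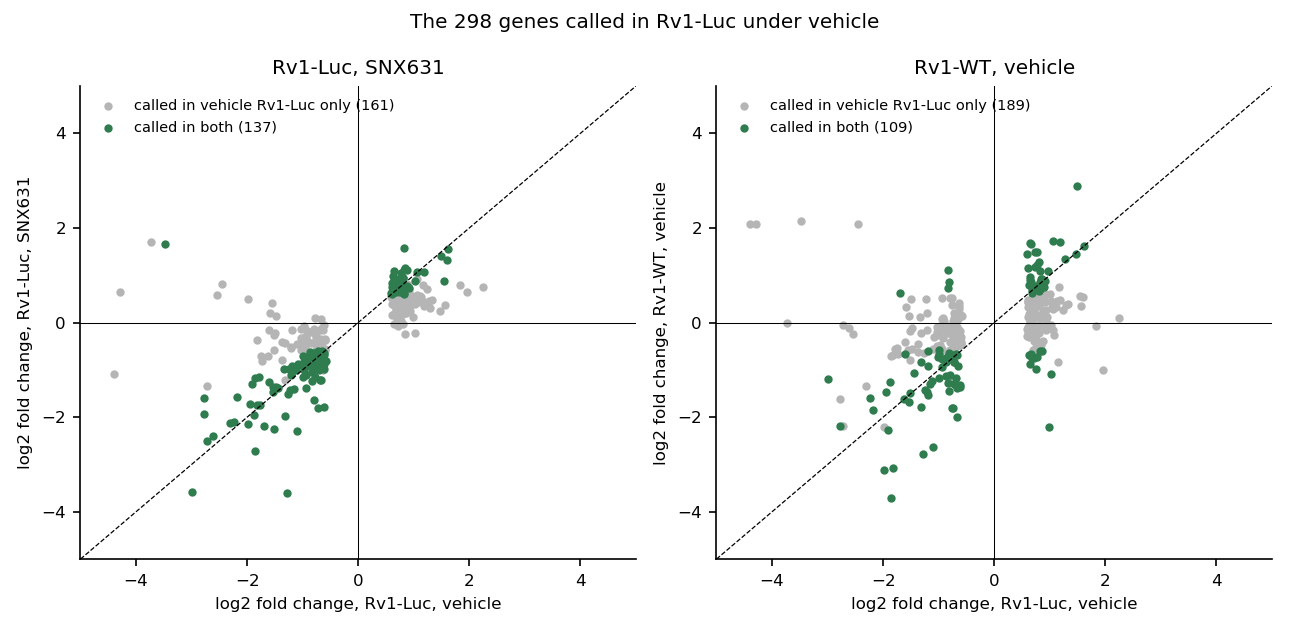
Log2 fold change between CSS and FBS of the 298 genes called in Rv1-Luc cells under vehicle (x axis) against their value in Rv1-Luc cells under SNX631 (left) and in Rv1-WT cells under vehicle (right), with green points called in both comparisons and the dashed line marking equal change. Of the 298, 137 are green on the left and 109 on the right, and 15 of the latter lie in the quadrants of opposite direction.

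Several gene groups with calls in Rv1-WT had no call in Rv1-Luc, or 1 in the case of the tubulins. Sterol synthesis genes, with a median of 0.18 in Rv1-Luc, had a median of -1.03 in Rv1-WT, where 21 of 25 fell, and the difference between the lines passed for 23. HMGCS1, for example, changed by 0.31 ± 0.13 in Rv1-Luc and by -2.05 in Rv1-WT. ATF4 stress response genes had medians of 0.13 and 0.82, with 0 and 26 of 36 called higher, and the difference passed for 19. Endoplasmic reticulum chaperones (medians of -0.07 and -0.59, difference called for 12 of 21), tubulins (-0.08 and -1.08, 9 of 13, with TUBB2A called in Rv1-Luc at -0.70 but not without CSS replicate 1) and G1/S and DNA replication genes (-0.07 and -0.56, 11 of 32) also had medians further from 0 in Rv1-WT. Androgen response genes had medians of -0.30 and -0.39, and the difference passed for 6 of 39. ELL2 was 1 of these, at -0.98 in Rv1-Luc and -0.12 in Rv1-WT. Genes called in opposite directions included GADD45A (-0.81 in Rv1-Luc and 0.85 in Rv1-WT), DUSP4 (-0.83 and 1.12), KRT7 (-0.84 and 0.73) and the interferon-induced ligase HERC5 (0.75 and -0.99). The Rv1-Luc calls of KRT7 and HERC5 were lost without FBS replicate 1 and with only the 6 Rv1-Luc vehicle libraries. That of HERC5 was also lost without CSS replicate 1. The Rv1-WT vehicle libraries held 14.6 M to 18.2 M counts and 62 to 99 immunoglobulin counts each, and whether other features of preparation differ between the lines was not tested.

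**Figure D5:**
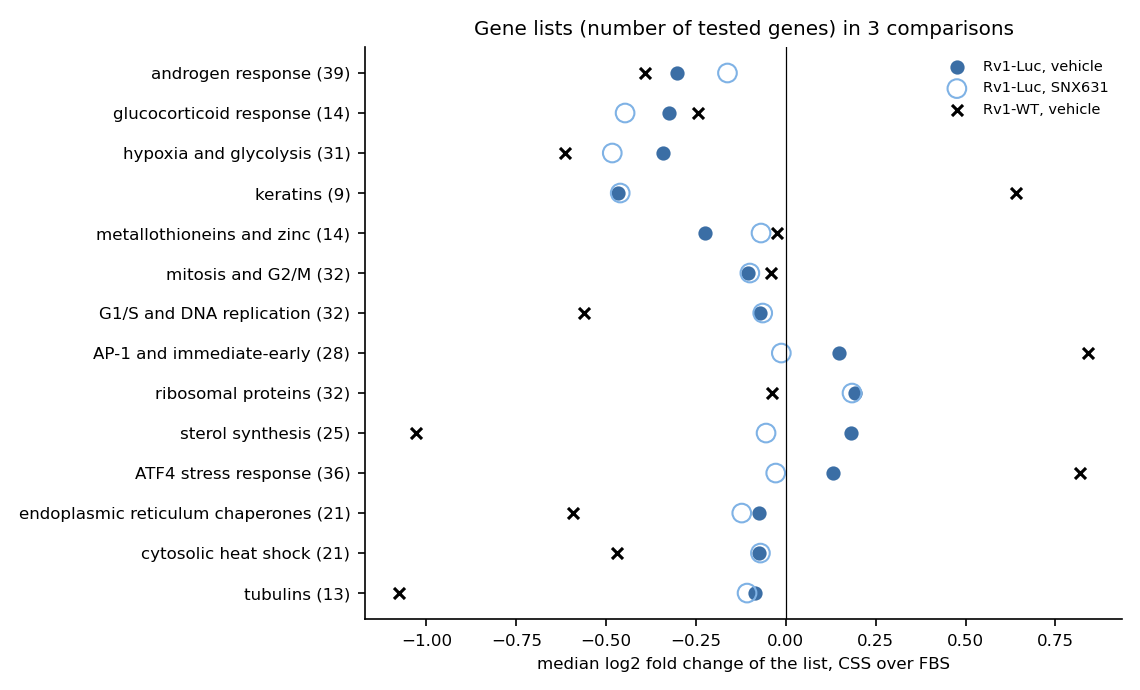
Median log2 fold change between CSS and FBS of 14 gene lists (number of tested genes in brackets) in Rv1-Luc cells under vehicle (filled circles), Rv1-Luc cells under SNX631 (open circles) and Rv1-WT cells under vehicle (crosses). Androgen response, glucocorticoid response and hypoxia lists lie below 0 in all 3, whereas sterol synthesis is at 0.18 in Rv1-Luc under vehicle and -1.03 in Rv1-WT.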

How the data were processed

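RNA was extracted from triplicate wells with RNeasy columns and sequenced from NEBNext Ultra II Directional libraries. Per the submitters' processing notes, FastQC, cutadapt 2.8, STAR 2.7.2b and featureCounts of Subread 2.0.3 were used, and GRCh38.p13 and GRCm39 are named as builds without a role. The annotation release and strand setting are not given in the sources used here. The deposited table holds expected counts per gene, 81.6% of the values above 0 being whole, and the authors did not normalize them. Values were rounded to whole counts.

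Genes were filtered with edgeR 4.0.16 (filterByExpr, minimum count 10 and minimum total 15), scaled by TMM (factors 0.911 to 1.07) and fitted in R 4.3.3 with edgeR's robust quasi-likelihood test, 1 mean per group over all 48 libraries (16 groups, 32 residual degrees of freedom), so that all groups shared 1 estimate of the spread. A call needed a Benjamini-Hochberg adjusted p under 0.01 and a fold change over 1.5. Standard errors are the fold change divided by the square root of the F statistic. CPM use TMM library sizes, and all fold changes are on the log2 scale from the fit. Replicates were labelled biological, and the RNA came from triplicate wells. The p-values measure the spread between replicates pooled over all 16 groups, not that of the 6 libraries alone. In 6459 tested genes over 20% of libraries held fractional counts, as shared reads give. On simulated data of this comparison (18866 genes) the procedure called 97% of 100 genes changed 2-fold and 94% of 100 changed 1.7-fold, with 1 false call. The simulation gave every gene the same spread, and only genes above a minimum mean count were changed. It does not measure recovery or false calls among weakly expressed genes or genes with a larger spread.

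The members and the gene lists were chosen with earlier results of these data known, so list counts are descriptions. Genes named are the 12 largest changes in each direction (with symbol, at least 1 CPM, groups not overlapping), the 6 lowest p-values, up to 6 called members of each list (the 2 most abundant where none was called), genes fixed by name (among them KLK2, KLK3, TMPRSS2, FKBP5, CDK8 and CDK19) and the lowest p-values of the differences between lines (6) and between treatments (4). Some genes that this rule names are not reported here. Other names were chosen after their values were seen. Promoters are RefSeq windows of 300 bases (GRCh38.p14). Of 61815 gene identifiers, 61766 matched the name table. Mitochondrially encoded genes were not analysed here.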

Additional observations from a re-analysis of the deposited data

Results flagged for a closer look

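The effect of CSS differed between Rv1-Luc and Rv1-WT cells for 1731 genes and, within Rv1-Luc, between vehicle and SNX631 for 16 genes, each by the test of the difference itself (edgeR's quasi-likelihood test, adjusted p under 0.01 and over 1.5-fold). The lowest p-values between the lines belonged to heat shock genes, tubulin and stress genes. As Rv1-Luc minus Rv1-WT on the log2 scale, the difference was 1.67 for HSPA1B, 1.31 for HSPA8, 1.13 for TUBB, 1.38 for PDIA4, -1.5 for DDIT3 and -1.66 for GADD45A. In Rv1-Luc itself GADD45A was the only one of these 6 that passed. As vehicle minus SNX631, the difference was -0.89 for KANSL1L, -0.70 for ACADL, -1.18 for COLCA1 and -5.14 for IGHG3, an immunoglobulin gene at 0.728, 3.90 and 1.09 CPM in FBS and 0.141, 0.180 and 0.185 CPM in CSS under vehicle. Groups of 3 libraries were too small for a check of single outlying samples.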

How the results depend on the processing

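The count of 298 calls was 275 with DESeq2, 298 with library size only, 337 without a filter on low counts, 247 with counts thinned to the smallest library, 238 without genes of fractional counts and 293 without immunoglobulin genes and JCHAIN (chosen after seeing the data), and 241 to 343 with 1 library left out, the lowest without FBS replicate 1. A similar count need not hold the same genes. Of the 298 calls, 98.7% were kept with library size only, 88.6% with DESeq2 and 73.2% with thinned counts. With 1 library left out 67.1% to 85.2% were kept, the lowest share without FBS replicate 1. With only the 6 libraries 64.8% were kept, and 56.7% with the replicate block added. No named gene was called in the opposite direction under any alternative run, but calls of named genes were lost. The losses were 18 with only the 6 libraries, 20 with the replicate block added to these, 14 without FBS replicate 1 and 43 against a 1.5-fold change. The balance of calls, 136 higher and 162 lower, turned to 174 higher and 169 lower without FBS replicate 2. With an FDR limit of 0.05 and no fold limit it was 1466 higher and 1334 lower, while the 1.5-fold test left 3 higher and 46 lower. The count was 2800 with that FDR limit, 198 with only the 6 libraries and 49 against a 1.5-fold change. For SNX631 these 3 settings gave 2539, 184 and 59 calls. For Rv1-WT the FDR limit gave 8981 and the 1.5-fold test 630, and for the difference between lines 6830 and 317. The 16 genes that differed between vehicle and SNX631 became 102 with the FDR limit, 50 without a filter, 2 with only the libraries of the comparison, 7 without fractional genes, 1 against a 1.5-fold change, and 8 to 31 with 1 library left out (8 without FBS SNX631 replicate 1, 31 without FBS SNX631 replicate 2, 27 without FBS vehicle replicate 1). With only its own libraries the Rv1-WT count was 2119, against 2174 in the main run. A stricter null gives a smaller count by construction, and the cause of the other shifts was not tested. Same-numbered libraries did not deviate together (r of -0.16, -0.15 and -0.05), and differently numbered ones gave r of -0.06 to 0.18. Deviations from the mean of 3 libraries constrain each other, so these values cannot tell whether the numbers pair samples. With the replicate block over all libraries the vehicle count was 301, and with the replicate block and only the 6 libraries 175. For the difference between treatments that block gave 4.

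With 3 libraries a group, genes under about 1 CPM are the least certain, and 30 of the 298 calls lie there. In 5 calls the CSS libraries were at or under 3 counts, so their fitted fold changes are no bound.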

Other observations

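Of 283 called genes matched to RefSeq (GRCh38.p14), 28 consecutive pairs lay within 100000 bases of each other, and both members moved in the same direction in all 28. The share of such pairs among all tested genes was not computed. Some are copies of one another or overlap, so that reads could be shared, and others are unrelated. They were picked after their values were seen. TARP, the prostate-expressed transcript of the T cell receptor gamma locus, was at 339, 324 and 305 CPM in FBS and 178, 193 and 185 CPM in CSS (-0.80 ± 0.04), and the overlapping TRGC1 and the joining segments TRGJ1 and TRGJP fell with it (-0.78, -1.10 and -0.88). Under SNX631 TARP changed by -0.22, from an FBS level of 107 ± 2.76 CPM (SD, n = 3). NNMT, a methyltransferase of nicotinamide that lies 1036 bases from ZBTB16, went from 1.86, 1.55 and 0.908 CPM to 0.281, 0.135 and 0.185 CPM (-2.78 ± 0.39). The tyrosine phosphatase genes PTPRB and PTPRR, 644 bases apart, had changes of -1.19 and -0.77, PTPRB from 445, 527 and 506 CPM to 205, 219 and 223 CPM. On chromosome 9 CBWD1, DOCK8 and DOCK8-AS1 fell together (-0.72, -0.99 and -0.66). POU2AF1, next to COLCA1, fell from 0.688, 0.713 and 0.409 CPM to 0.211, 0.316 and 0.0924 CPM (-1.52 ± 0.41). Among higher genes, the cytokine receptor genes CNTFR and IL11RA were neighbours (0.69 and 0.61).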
